A study of Homo sapiens with 8 samples.

Results

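The connexin genes described here are GJA1, GJA3, GJA4, GJA5, GJB2 and GJC1. They were chosen by name, as the 6 rows of a deposited table of 30386 genes whose symbol equals one of these. The cells were made from WTC-TJP1, a human stem cell line of induced pluripotency. One group is endothelial (iEC, n = 4) and the other is labelled retinal endothelial (iREC, n = 4); both carry the letters C, D, E and F and were taken at passage 1. Both groups share the line, the labelled cell type and the passage, and the labels name no agent, dose or time that sets iREC apart. All samples come from 1 line, and the series text calls the differentiations matched without saying what a letter marks, so p-values measure the spread between these samples, which may be technical.

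Connexins are the subunits of gap junctions. Connexin subunits assemble into a hemichannel, and hemichannels of neighbouring cells dock to form a channel that passes ions and small metabolites. In vessels, GJA4 (connexin 37), GJA5 (connexin 40) and GJA1 (connexin 43) are the connexins of endothelium, with GJA5 and GJA4 typical of arteries, and GJC1 (connexin 45) is best known from smooth muscle and the cardiac conduction system. GJA3 (connexin 46) is a connexin of lens fibres, and GJB2 (connexin 26) one of epithelia and the cochlea.

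The iEC libraries held 14877502 to 16971865 counts and the iREC libraries 13739364 to 15987839. The detection floor was set at 3 counts, which is 0.177 to 0.214 CPM (counts scaled to library size), for counting error only. The 8 endothelial markers were present in both groups, summing to 6506 to 8563 CPM among iEC samples and to 3670 to 8065 CPM among iREC samples. iREC F had the lowest endothelial sum and the highest sum of 10 mural and mesenchymal markers, 4339 CPM against 588 to 1211 CPM in the other iREC samples and 213 to 422 CPM in iEC. In bulk samples, fewer cells of a type and less RNA per cell cannot be told apart.

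GJA1 and GJA5 moved in opposite directions, as described below, and the bases before their starts are shown first. RefSeq promoter entries on GRCh38.p14 were held for GJA1 (1), GJA3 (1), GJA5 (2) and GJB2 (1). The bases printed end before the first GENCODE start in each window, so that they hold no transcribed sequence of that start. Capitals mark matches to any of 8 short motifs searched on both strands (the TATA box TATAAA, the GC box GGGCGG, the Krüppel-like core CACCC, the AP-1 site TGANTCA, the SOX core ACAAT, the GATA core GATAA, the RBPJ core TGGGAA and the T-box core GGTGTG); no match overlapped another. The upstream GJA5 window lies at chr1:147773363-147773601 on the minus strand, the internal GJA5 window at chr1:147760607-147760852 on the minus strand, within an intron of the longer transcripts, and the GJA1 window at chr6:121435396-121435576 on the plus strand.
GJA5 upstream: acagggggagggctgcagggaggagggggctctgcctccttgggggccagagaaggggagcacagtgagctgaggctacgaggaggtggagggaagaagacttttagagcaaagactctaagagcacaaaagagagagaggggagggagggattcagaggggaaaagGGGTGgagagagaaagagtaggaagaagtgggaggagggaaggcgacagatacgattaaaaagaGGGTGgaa
GJA5 internal: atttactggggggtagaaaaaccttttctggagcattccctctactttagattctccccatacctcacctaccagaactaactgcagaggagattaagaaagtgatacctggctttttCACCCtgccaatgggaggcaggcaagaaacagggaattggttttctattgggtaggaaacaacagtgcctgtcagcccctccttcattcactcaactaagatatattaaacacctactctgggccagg
GJA1: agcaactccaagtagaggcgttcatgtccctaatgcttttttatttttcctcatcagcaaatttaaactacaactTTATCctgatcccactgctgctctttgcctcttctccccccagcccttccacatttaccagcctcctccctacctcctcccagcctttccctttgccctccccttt

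The upstream GJA5 window was 78.7% purine (A or G) on its sense strand, and the GJA1 window 27.1%. Among 35116 promoter windows cut to the same length, 0.103% were at least as purine-rich as that of GJA5 and 0.424% were at most as purine-rich as that of GJA1, with medians of 50.2% and 50.3%. The internal GJA5 window was 49.2% purine, against a median of 50%. This composition was noticed after the sequences had been read, and it is a description of the letters only. CACCC, the core letters of Krüppel-like factor sites, matched 2 times in the upstream GJA5 window and 1 time in the internal one, where 53.2% and 54.2% of all windows of those lengths held it. GATAA matched 1 time in the GJA1 window, where 16.2% of windows held it. The counts are per gene, so they do not show which GJA5 start was used.

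GJA1 encodes connexin 43, the connexin found in most tissues. GJA1 (ENSG00000152661, chromosome 6, 121435577 to 121449727) had 883, 1270, 583 and 770 CPM in iEC C, D, E and F. Its values across iREC C to F were 313, 258, 173 and 570 CPM. The groups did not overlap, although the highest iREC sample (F) lay close to the lowest iEC sample (E). GJA1 fell 2.66-fold in iREC, with group means of 876 ± 290 and 328 ± 171 CPM (SD, n = 4). Its log2 fold change was -1.41 ± 0.37 (SE), and edgeR's quasi-likelihood test gave an adjusted p of 0.0210. A gene is said to be called, and to rise or fall, where this p, adjusted over all tested genes by Benjamini-Hochberg, is under 0.05. Without iREC D the log2 fold change was -1.31 and the call was lost (edgeR adjusted p 0.0663). Without iREC F, the sample with the highest GJA1 and mural marker levels of its group, it was -1.82 (edgeR adjusted p 0.00279). The part of mural or mesenchymal cells in the GJA1 level of iREC F was not tested. A processed pseudogene copy, GJA1P1, held at most 7 counts in any sample.

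GJA5 encodes connexin 40, the large-conductance connexin of arterial endothelium and atrial muscle. GJA5 (ENSG00000265107, chromosome 1, 147756199 to 147773362) had 2, 255, 2 and 18 counts in iEC C, D, E and F, or 0.130, 16.1, 0.118 and 1.29 CPM. Its values across iREC C to F were 412, 609, 544 and 646 CPM. The groups lay far apart, and iEC D stood alone within its group. The iEC C and E values, 2 counts each, lie under the floor of 3 counts, so no exact fold range is given for iEC; the iREC values spanned 1.57-fold. GJA5 rose in iREC, with group means of 4.41 ± 7.81 and 553 ± 103 CPM (SD, n = 4). Its log2 fold change was 6.97 ± 1.27 (SE), with an adjusted p of 0.00391 by edgeR.

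The size of the GJA5 difference rests on iEC D. The fitted fold was 125 with all samples and 1111 without iEC D (log2 fold change 10.12, edgeR adjusted p 8.48e-05). limma-voom, which averages log values, gave a log2 fold change of 9.36 (adjusted p 0.000279). The authors' deposited table lists a log2 fold change of 6.97 for GJA5 but no p-value, and an adjusted p of 1; it is 1 of 63 genes with no p-value there. DESeq2 on the same counts gave GJA5 an adjusted p of 4.71e-06 and a largest Cook's distance of 15.0, in iEC D. The 99th percentile of the F distribution that DESeq2 uses as its limit is 10.9. An antisense gene, AC241644.3, overlaps GJA5 and has no row in the table.

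GJA4 encodes connexin 37, which pairs with connexin 40 in arterial endothelium. GJA4 (ENSG00000187513, chromosome 1, 34792998 to 34795747) had 18.4, 82.8, 3.60 and 20.5 CPM in iEC C, D, E and F. Its values across iREC C to F were 166, 247, 217 and 261 CPM. Every iREC sample was above every iEC sample, with iEC D again the highest of its group and iEC E the lowest. GJA4 rose 7.11-fold in iREC, with group means of 31.3 ± 35.1 and 222 ± 41.8 CPM (SD, n = 4). Its log2 fold change was 2.83 ± 0.74 (SE), with an adjusted p of 0.0215 by edgeR. Without iEC D the fold was 15.6 (log2 fold change 3.97, edgeR adjusted p 0.00170), and limma-voom gave a log2 fold change of 3.61 (adjusted p 0.00486). The call was lost without iEC C, iEC F or iREC D, with log2 fold changes of 2.64, 2.67 and 2.78 and edgeR adjusted p of 0.0601, 0.0571 and 0.0501. Without iREC F, the fitted log2 fold changes of GJA4 and GJA5 were 2.74 and 6.88, with edgeR adjusted p of 0.0313 and 0.00471.

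GJC1 encodes connexin 45, a low-conductance connexin needed early in heart and vessel development. GJC1 (ENSG00000182963, chromosome 17, 44798448 to 44830816) had 72.4, 53.6, 59.3 and 45.9 CPM in iEC C, D, E and F. Its values across iREC C to F were 47.9, 47.2, 42.8 and 51.9 CPM. The groups overlapped. The means were 57.8 ± 11.2 and 47.5 ± 3.70 CPM (SD, n = 4), and GJC1 was not called (log2 fold change -0.28, 95% interval -0.62 to 0.06; edgeR adjusted p 0.208). Of the tested connexins it varied least within both groups, 1.58-fold in iEC and 1.21-fold in iREC.

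The lens and epithelial connexins were at or near the floor. GJA3 (chromosome 13, 20138255 to 20161049) had 1, 2, 5 and 1 counts in iEC C to F and 8, 2, 0 and 6 in iREC C to F. GJB2 (chromosome 13, 20187463 to 20193010) had 0 counts in all 4 iEC samples, which allows up to 0.214 CPM in any of them. In iREC C, D, E and F it had 0, 1, 0 and 3 counts. Neither passed the filter on low counts. Without that filter their edgeR adjusted p were 0.631 and 0.283, and a difference was not detectable at this depth. Of the 6 lens markers, 2 had a row: CRYBB2 had at most 8 counts in any sample, and BFSP1, a lens filament protein, rose from a mean of 5.76 to 9.84 CPM; log2 fold change 0.77, edgeR adjusted p 0.0410). The part of lens-like cells in the GJA3 counts was not tested. The epithelial markers, which could accompany GJB2, summed to 390 to 1170 CPM over iEC and 300.5 to 4837 CPM over iREC, and their part in the GJB2 counts was not tested. Of these, CDH1 reached 1 count in iEC, and 1 iREC sample held 1246 of its 1337 iREC counts. ESRP1 was at 0 in every iEC sample and at most 5 counts in iREC.

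**Figure D1:**
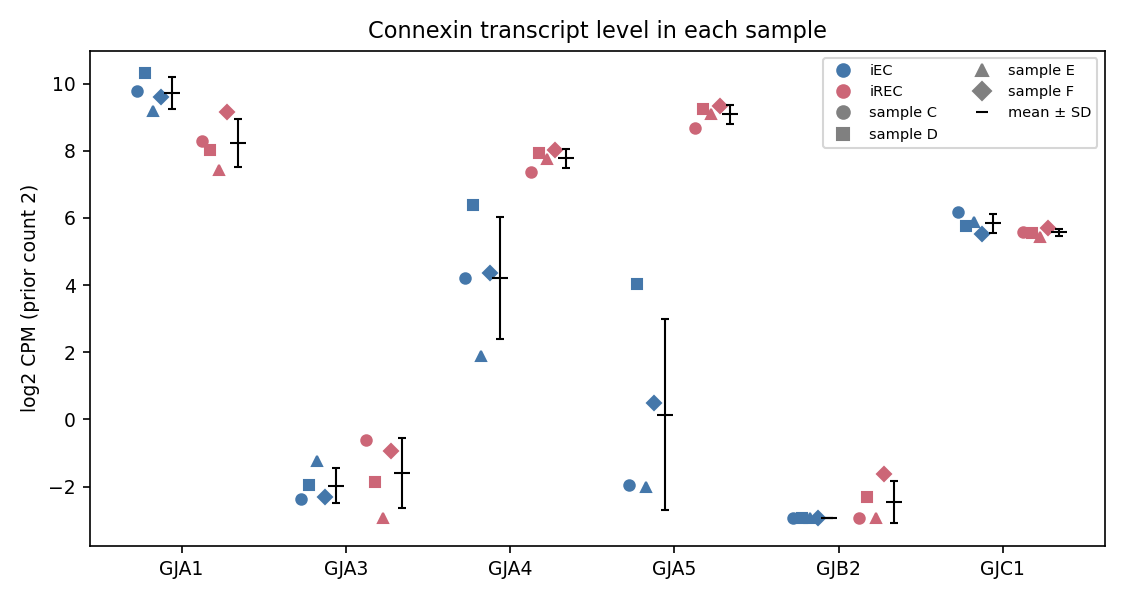
Level of each connexin in each sample as log2 CPM (prior count 2, vertical axis), with iEC in blue, iREC in red, a marker shape for each sample letter, and bars for mean ± SD (n = 4). GJA1 is lower and GJA4 and GJA5 are higher in every iREC sample than in any iEC sample, GJC1 overlaps, and GJA3 and GJB2 sit at the bottom of the scale.

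Of the 6 connexins, 4 passed the filter, and 3 of these were called: GJA4 and GJA5 higher and GJA1 lower in iREC. Over all 15330 tested genes, 25.0% were called, 13.2% higher and 11.7% lower, and the median log2 fold change was 0.02. The same 3 connexins did not overlap between the groups, against 29.1% of all tested genes, 14.4% higher and 14.7% lower in iREC. Within the distribution of all tested fold changes, GJA5 stood at the 99.5th percentile, GJA4 at the 96.0th and GJA1 at the 4.44th. The count of called connexins was 3 with all samples under each alternative, 2 without iEC C or iEC F and 1 without iREC D, when GJA5 alone was called. Leaving out iEC D or iREC F left it at 3.

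**Figure D2:**
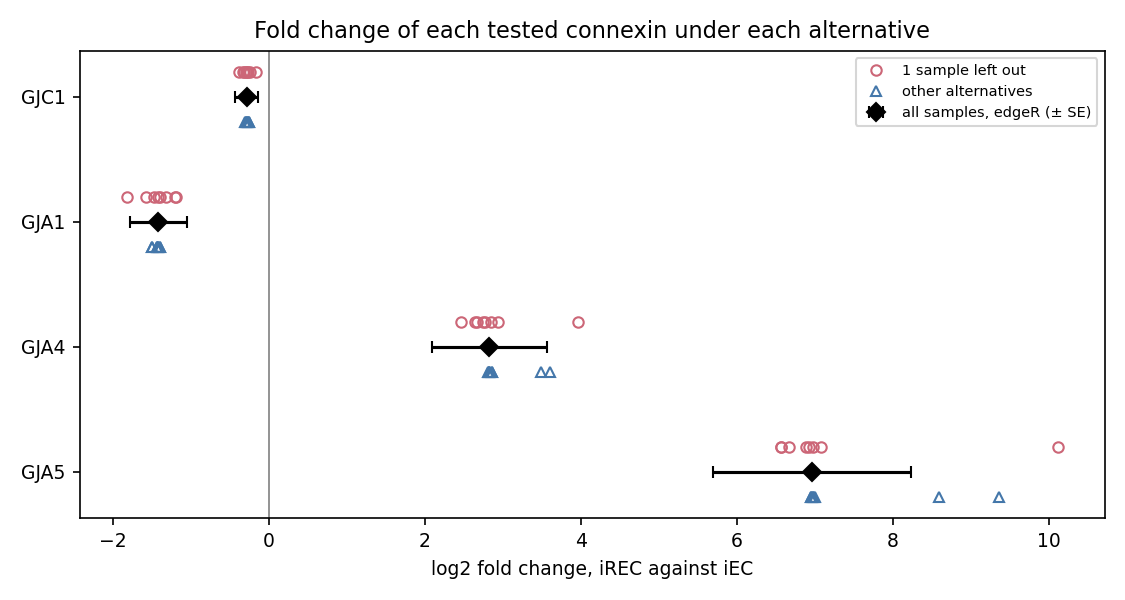
Log2 fold change of iREC against iEC (horizontal axis) for the 4 tested connexins. Black diamonds with bars give the edgeR value ± SE with all samples, red circles the fits without 1 sample, and blue triangles the other alternatives. GJA5 ranges from 6.56 to 10.12 and GJA4 from 2.46 to 3.97, the highest of each being the fit without iEC D, and GJA1 stays between -1.82 and -1.19.

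Levels of different connexins were compared per length, in the deposited FPKM (fragments scaled to gene length and library size). In iEC, GJA1 was the highest in 4 of 4 samples, at 255 ± 82.0 FPKM (SD, n = 4). GJA4 followed at 18.1 ± 20.0 FPKM and GJC1 at 6.62 ± 1.18 FPKM, but these neighbours did not part: GJA4 exceeded GJC1 in 3 of 4 samples, and the ratio ran from 0.306 to 7.79. GJA5 was below GJC1 in every iEC sample, at 1.32 ± 2.33 FPKM. In iREC the order was different, with GJA5 first at 166 ± 31.5 FPKM, then GJA4 at 128 ± 24.5 FPKM and GJA1 at 95.1 ± 50.3 FPKM. GJA5 exceeded GJA4 and GJA1 in 4 of 4 iREC samples, while GJA1 exceeded GJA4 in 1 of 4, iREC F. GJC1 came next at 5.40 ± 0.46 FPKM.

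The make-up of the connexin pool was followed as shares of summed FPKM. Of 21 connexin symbols searched, 15 had a row, and the sum of their FPKM was 275, 426, 180 and 254 in iEC C, D, E and F and 316, 404, 343 and 521 in iREC C, D, E and F. The sums overlapped, and their log2 ratio of 0.48 was within the spread (exact two-sided permutation p 0.171 over 70 assignments). GJA1 made up 92.3%, 85.7%, 94.0% and 91.3% of the pool in iEC C, D, E and F, but 28.6%, 18.4%, 14.4% and 32.0% in iREC. GJA4 and GJA5 together made up 3.84%, 12.2%, 1.18% and 4.99% in iEC, and 69.2%, 79.7%, 83.2% and 66.7% in iREC. The means of the GJA1 share differed by -67.5 percentage points and those of the GJA4 and GJA5 share by 69.1. For each, exact permutation (two-sided) gave p = 0.0286, which is the lowest value 4 against 4 samples can reach, and 0.0571 after Benjamini-Hochberg adjustment over 4 such values, so neither passed the threshold after adjustment although the groups lay far apart. The GJC1 share was 2.58 ± 1.02% in iEC and 1.40 ± 0.24% in iREC (exact permutation p 0.0571, adjusted 0.0762). The 11 connexins outside the 4 tested ones made up at most 1.55% of the pool in any sample.

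**Figure D3:**
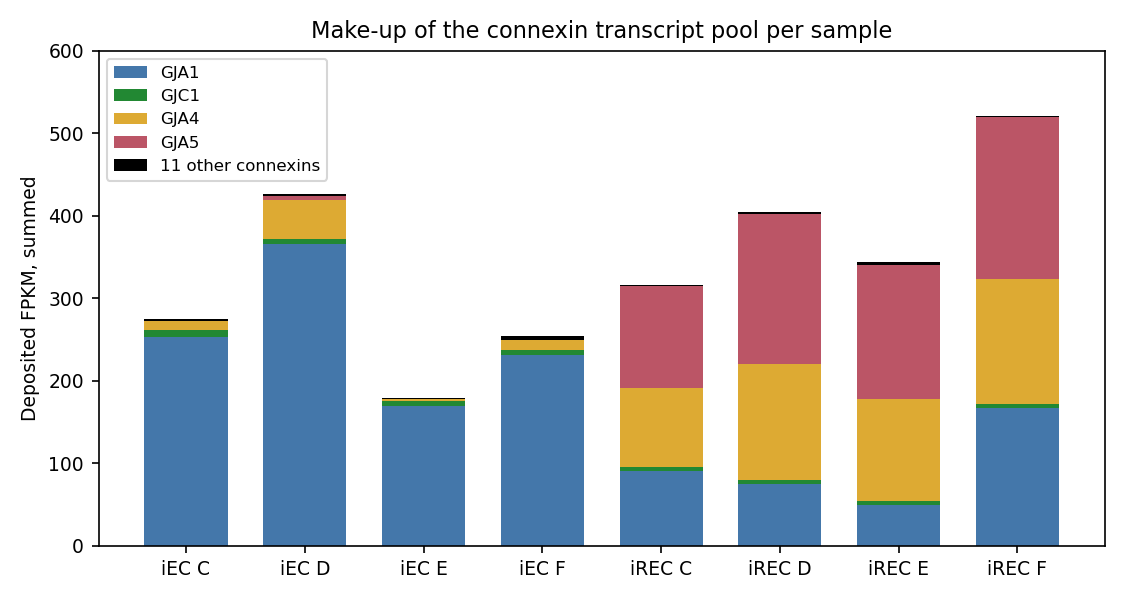
Sum of the deposited FPKM of all connexins with a row (vertical axis) for each of the 8 samples, stacked by gene, with black for the 11 others. The bars run from 180 to 521 FPKM and overlap between groups, while the GJA1 part is 85.7% or more of each iEC bar and 32.0% or less of each iREC bar.

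GJA4 and GJA5 kept a near-constant ratio in iREC. GJA5 was 1.29, 1.29, 1.31 and 1.29 times GJA4 in FPKM in iREC C, D, E and F, although each of the pair varied 1.57-fold across these samples. The SD of the log2 ratio of their counts was 0.011, below the 0.030 that counting error alone gives for counts of this size, so the ratio was constant within counting error. Among 3510 tested genes with a mean of at least 1000 counts in iREC, GJA4 ranked 1st in closeness to GJA5 by this SD. This ranking was made after the ratios had been seen, and it rests on 4 samples. In iEC the ratio was 0.0037, 0.101, 0.017 and 0.033 in C, D, E and F, so GJA5 was below GJA4 in each; in C and E it rests on 2 GJA5 counts. The 2 genes lie on chromosome 1 but far apart, each in a connexin neighbourhood of its own.

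**Figure D4:**
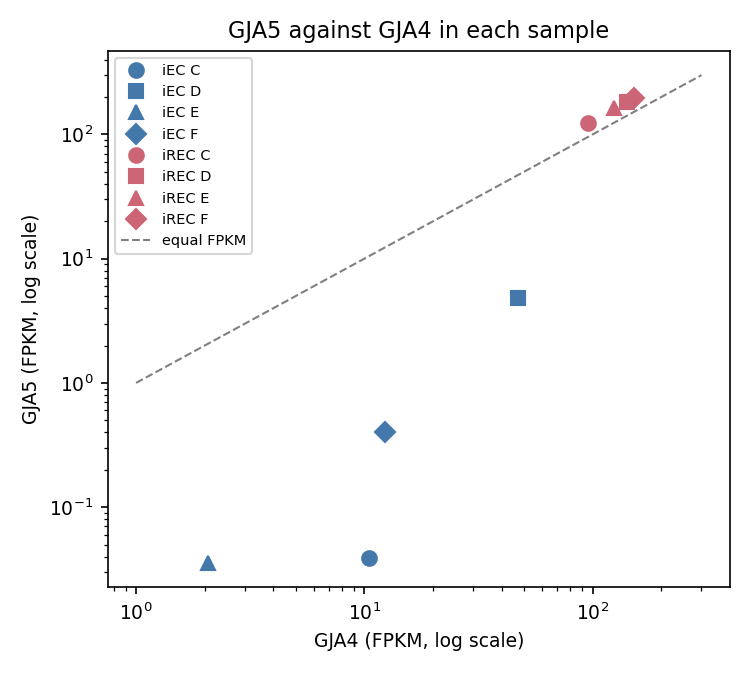
GJA5 (vertical) against GJA4 (horizontal) in FPKM on log axes, 1 point per sample, iEC in blue and iREC in red, with a dashed line of equal FPKM. The 4 iREC samples lie just above the line at a ratio of 1.29 to 1.31, and the 4 iEC samples lie below it, iEC D nearest to the iREC samples.

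The spread within iEC was shared with arterial genes. iEC D was the highest iEC sample for GJA1, GJA4 and GJA5. It was also the highest for 9 of 10 arterial markers, SOX17 being the exception, where 25.4% of all tested genes were highest in that sample. The arterial markers summed to 1946 CPM in iEC D against 497 to 835 CPM in the other iEC samples and 1329 to 1916 CPM in iREC. The arterial sum of iEC D was above every iREC sum, whereas its GJA5 level of 16.1 CPM was below the lowest iREC value of 412. Within iREC this sharing was not seen. iREC F had the lowest arterial sum of its group, 1329 CPM, but the highest GJA1, GJA4 and GJA5, at 570, 261 and 646 CPM. iREC E had the highest arterial sum, 1916 CPM, with GJA1, GJA4 and GJA5 at 173, 217 and 544 CPM. DLL4, a Notch ligand of arterial endothelium, had 450 CPM in iEC D, 103 to 211 CPM in the other iEC samples and 162 to 206 CPM in iREC. NRP1, a VEGF and semaphorin co-receptor, had 646 CPM in iEC D against 187 to 249 CPM in the other iEC samples and 414 to 741 CPM in iREC. The part of arterial cells in the connexin levels of iEC D was not tested. All arterial markers had a row, and none was at or under 3 counts in every sample. The cardiac muscle markers, which could accompany GJA5, were low. Their sum reached 0.532 CPM among iEC samples, and was 0.979 to 1.58 CPM in iREC C, D and E and 8.03 CPM in iREC F. The part of cardiac muscle cells in the GJA5 level of iREC F was not tested. TNNT2 and MYL7 were at 0 in every iEC sample. Their highest iREC samples held 11 and 107 counts, of 11 and 117 over all iREC samples. MYH6 was at 0 in every iREC sample.

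**Figure D5:**
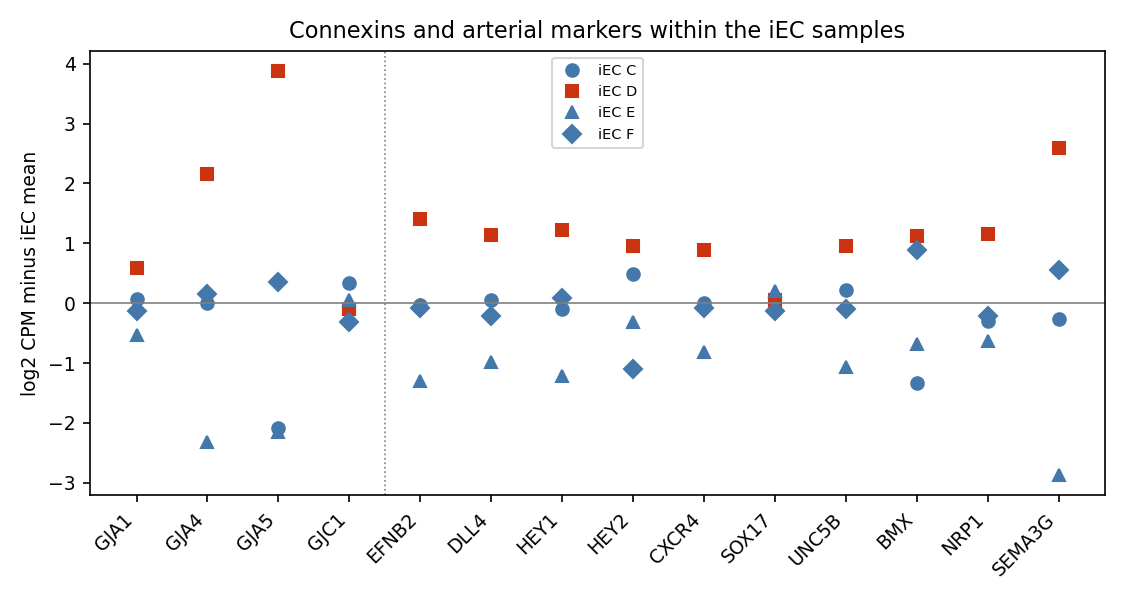
Deviation of each iEC sample from the iEC mean in log2 CPM (vertical axis) for the 4 tested connexins (left of the dotted line) and 10 arterial markers, with iEC D as red squares and the other samples in blue. iEC D is the highest sample for GJA1, GJA4, GJA5 and 9 of the 10 markers.

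The genes nearest in pattern were taken as those with the smallest root mean square difference from a connexin in log2 CPM, each centred on its own mean over the 8 samples, among 13029 tested protein-coding genes. For GJA5 these were NPR3, the natriuretic peptide clearance receptor, at 0.69, and TMEM100, a transmembrane protein induced by BMP signalling in arterial endothelium, at 0.96. NPR3 had 0.389, 11.7, 0.532 and 0.786 CPM in iEC C, D, E and F and 598 to 1229 CPM in iREC. TMEM100 had 0, 60, 0 and 1 counts in iEC C, D, E and F and 212 to 593 CPM in iREC. Both were highest in iEC D within iEC, like GJA5, but iEC D is among the samples by which they were picked, so this is no separate likeness. For GJA4 they were SEMA3G, a semaphorin of arterial endothelium and one of the arterial markers, at 0.49, and METTL7A at 0.53. SEMA3G had 5.32, 39.4, 0.768 and 9.51 CPM in iEC C, D, E and F and 60.2 to 109 CPM in iREC. For GJA1 they were SPRED2, an inhibitor of the MAP kinase pathway, at 0.32, and CACHD1 at 0.33. For GJC1 they were CHUK, a kinase of the NF-kappaB pathway, at 0.042, and WDCP at 0.048; GJC1 changed little, so nearness to it says only that a gene changed as little.

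Of the other 15 connexins, 9 had a row. Among these, GJD3 passed the filter and was not called. It had 0.473 to 2.07 CPM in iEC and 0.196 to 0.854 CPM in iREC (95% interval -2.42 to 0.56; edgeR adjusted p 0.338). Of the 3 pannexins, relatives in topology that form channels without docking, PANX1 alone passed the filter. PANX1 had 35.4 ± 4.35 CPM in iEC and 33.4 ± 3.29 CPM in iREC (SD, n = 4; log2 fold change -0.08, 95% interval -0.38 to 0.22; edgeR adjusted p 0.697).

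GJB5, which lies 34.5 kb from GJA4, had at most 9 counts in any sample. GJA3 and GJB2, both near 0, lie 26.4 kb apart on chromosome 13, and GJB6 lies 28.95 kb beyond GJB2. In GENCODE 29 the coding sequence of each of the 6 connexins lies in 1 exon in all of its transcripts, from 678 bases in GJB2 to 1305 in GJA3.

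Genes that handle connexin proteins were followed as a list of 22 symbols covering scaffolds, trafficking, kinases and turnover, of which 21 were tested. By edgeR, 1 rose, 5 fell and 15 were not called, with a median log2 fold change of -0.30. Over all tested genes 25.0% were called (13.2% higher, 11.7% lower), with a median of 0.02, so the share of called partners is near that of all genes. CAV1, the caveolin that binds connexins in lipid rafts, fell in iREC (means 959 ± 311 and 274 ± 95.2 CPM, SD, n = 4; log2 fold change -1.81, edgeR adjusted p 0.00369). DBN1 (drebrin), an actin-binding partner of connexin 43, fell in iREC (means 603 ± 75.4 and 240 ± 80.7 CPM; log2 fold change -1.33, edgeR adjusted p 0.00269). NOV, a matricellular protein that binds connexin 43, fell in iREC (means 2.96 ± 2.88 and 0.338 ± 0.270 CPM; log2 fold change -3.09, edgeR adjusted p 0.0358), a call that was lost under limma-voom (adjusted p 0.0802) and without iEC E, iEC F, iREC C, iREC D or iREC E, with edgeR adjusted p of up to 0.111. EPS15, an endocytic adaptor in connexin 43 turnover, rose in iREC (means 76.7 ± 6.68 and 117 ± 23.0 CPM; log2 fold change 0.61, edgeR adjusted p 0.0209). That call was lost without iEC E, iREC C, iREC D or iREC E, with edgeR adjusted p of up to 0.0631. The remaining falls, outside the naming rule and named after their values were seen, were in NEDD4, a ubiquitin ligase of connexin 43, and PRKCA, a kinase that phosphorylates it (log2 fold changes -0.72 and -0.67, edgeR adjusted p 0.00792 and 0.0458). TJP1, whose product ZO-1 binds the tail of connexins, was not called (log2 fold change 0.64, edgeR adjusted p 0.0701).

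Of 19 genes known to act on connexin transcription in endothelium or heart, 16 were tested; 2 rose, 4 fell and 10 were not called, with a median log2 fold change of 0.15. These counts stand beside 13.2% called higher and 11.7% called lower over all tested genes, and nothing particular to the list is read from them. HEY2, a Notch target of arterial endothelium, rose in iREC (means 5.31 ± 3.07 and 45.3 ± 12.8 CPM, SD, n = 4; log2 fold change 3.09, edgeR adjusted p 0.000976). FOXO1, a forkhead factor restrained by AKT, rose in iREC (means 52.7 ± 10.4 and 135 ± 32.9 CPM; log2 fold change 1.35, edgeR adjusted p 0.00170). KLF2, the shear-induced Krüppel-like factor, fell in iREC (means 19.2 ± 11.5 and 1.43 ± 0.328 CPM; log2 fold change -3.74, edgeR adjusted p 0.000493). TBX3, a T-box repressor of GJA5 and GJA1 in the conduction system, fell in iREC (means 83.5 ± 11.8 and 20.5 ± 7.49 CPM; log2 fold change -2.02, edgeR adjusted p 0.000919). JUN, an AP-1 subunit that acts on GJA1, fell in iREC (means 349 ± 57.8 and 101 ± 13.96 CPM; log2 fold change -1.78, edgeR adjusted p 9.87e-05). The remaining fall, named after its value was seen, was in the Notch receptor NOTCH4 (log2 fold change -1.56, edgeR adjusted p 0.00208). NOTCH1, DLL4, SOX17 and ACVRL1, upstream factors of arterial connexins, were not called (log2 fold changes 0.25, -0.34, 0.07 and -0.35; edgeR adjusted p 0.354, 0.550, 0.815 and 0.315).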

How the data were processed

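Messenger RNA of 8 samples was sequenced from libraries with dUTP in the second strand, per the labels' protocols. The submitters' processing notes name fastp, HISAT2 2.0.5 and hg38, and the counting program is not given in the sources used here. Whether counting used strand is also not given, so reads of a gene and of an overlapping gene on the other strand may not be told apart. Some items are not reported here. The authors deposited raw read counts per gene, normalized counts as a signal (count divided by 1 size factor per sample), FPKM, and log2 fold changes with p-values, per the file headers. GENCODE 29 (GRCh38, 1-based) holds each of the 30386 genes at the deposited coordinates.

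Counts were filtered by filterByExpr, scaled by TMM and compared by edgeR 4.0.16's quasi-likelihood test over 15330 genes, with Benjamini-Hochberg adjustment and a threshold of 0.05. CPM is on TMM-scaled library totals. The test was tried on simulated data. Single pool values used exact permutation tests. Named genes were the 6 connexins, tested connexins and pannexins, up to 3 called genes per direction from the partner and regulator lists, and the 2 nearest genes per connexin. The connexins and lists were chosen with earlier results of these data known. Alternatives were other scalings and filters, DESeq2 1.42.0, limma-voom (limma 3.58.1), the newer quasi-likelihood fit, a replicate block and each sample left out. Whether the letters pair the samples is not known: same-letter deviations correlated at 0.17, -0.08, 0.03 and 0.25 for C, D, E and F, not all above 0.1, so the fit without the block was kept.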

Additional observations from a re-analysis of the deposited data

Results flagged for a closer look

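In groups of 4, a highest or lowest sample is listed here if more than 0.829 of the range separates it from its neighbour. Of 42 groups examined, 5 held such a value, where chance gives about 2.1. GJA5 in iEC D, at 16.1 CPM, stood above 0.118 to 1.29 CPM in the other iEC samples. In iREC F the summed mural and mesenchymal markers (4339 CPM), epithelial markers (4837 CPM) and cardiac muscle markers (8.03 CPM) stood above the other iREC samples. In iEC E the summed blood markers, 46.4 CPM, stood above 24.2 to 25.2 CPM in the other iEC samples. These iEC sums were nearly all RUNX1, at 351 to 784 counts. PTPRC and CD68 had 0 counts in iEC, SPI1 at most 2 and TYROBP at most 1.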

How the results depend on the processing

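The directions of GJA1, GJA4, GJA5 and GJC1 held under all 17 alternatives. GJA5 was called and GJC1 not called under each of them. With 1 sample left out, the GJA1 log2 fold change ran from -1.82 to -1.19 and that of GJA4 from 2.46 to 3.97; GJA1 lost its call in 1 of these 8 fits and GJA4 in 3. With the letter as a replicate block the calls of the 4 connexins were the same, with GJA1 2.83-fold lower, GJA4 11.3-fold and GJA5 385-fold higher (log2 fold change 8.59), and GJC1 at -0.27. On CPM in place of FPKM the GJC1 share difference was -2.21 percentage points against -1.18; the other pool values moved by less than the spread between replicates. GJA3 and GJB2 had too few counts for a fit with the filter. Depth limits GJA3, GJB2 and the low connexins, where 3 counts are worth about 0.2 CPM.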
